A study of Mus musculus with 6 samples.

Results

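The interferon response genes are a named set of 40 mouse genes, taken by symbol from the 49585 gene IDs of a count table made by RNA-seq of KMT2A-MLLT3 leukemia cells. Of these, 11 belong to the Ifit, Oas and Mx families, which are called type I members here, and 10 to the guanylate-binding protein (Gbp) and immunity-related GTPase (Irg) families, called gamma-type members. The other 19 are given by their role. Of the 40, 33 carried enough counts to be tested (7 type I, 9 gamma-type and 17 others), among 15812 tested genes. A member could pass the filter on low counts through the 1 group in which it was high.

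KMT2A-MLLT3 joins the histone methyltransferase KMT2A to MLLT3, a partner of the histone methyltransferase DOT1L, and drives acute myeloid leukemia. All 6 libraries came from mouse leukemia cells with this fusion. Per the labels, marrow of mice ill with the leukemia received DOT1L by transduction, populations of low and high expression were sorted, the culture medium held mIL3, mIL6 and mSCF, and RNA was taken 3 days after the sort. The groups are labelled NT, DOT1L Low and DOT1L High, written NT, Low and High below, and each held 2 libraries, 1 titled K3117 and 1 titled K3174. NT is not expanded in the labels, and they do not say if it is a transduced or a sorted population. The labels give no vector, no species of the introduced DOT1L and no ages, and they do not say whether the K numbers are separate mice. Where they were not, p-values reflect the spread of these samples alone, which may be technical. The K numbers are called leukemias here and were fitted as a block, so that the labels were compared within each leukemia.

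Type I interferons are secreted when a cell senses viral or damaged nucleic acid. Type I interferon binds the receptor Ifnar1 with Ifnar2 and acts through a complex with Stat2 and Irf9 that binds the interferon-stimulated response element in promoters of genes such as the Ifit, Oas and Mx families. Interferon gamma binds Ifngr1 with Ifngr2, and GTPases of the Gbp and Irg families are among its best-known targets, although many genes answer both. In blood-forming tissue, interferons act on stem and myeloid cells, and plasmacytoid dendritic cells are a main source of type I interferon.

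Promoter stretches are shown for 6 members to let the response element be read beside the values that follow. They are from RefSeq on GRCm38.p6, 100 bases each, 5′ to 3′ on the gene's strand, and capitals mark every match to the response element core. The core searched was GAAA, any 2 bases and GAAA again, on both strands, so that a match on the other strand reads TTTC, any 2 bases and TTTC, and matches may overlap. Oas1a (chr5:120907526-120907625, minus strand), Oas3 (chr5:120777660-120777759, minus strand), Gbp3 (chr3:142559944-142560043, plus strand), Gbp7 (chr3:142530236-142530335, plus strand) and Isg15 (chr4:156200819-156200918, minus strand) are shown from 100 bases before the start to the last base before it. Cxcl10 (chr5:92349040-92349139, minus strand) is shown from 250 to 151 bases before it. Oas1a, Oas3, Gbp3 and Gbp7 were lower in High than in NT, Cxcl10 was higher, and Isg15 is the member with the densest run of matches.
Oas1a: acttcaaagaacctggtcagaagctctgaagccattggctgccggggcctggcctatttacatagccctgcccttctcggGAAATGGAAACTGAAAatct
Oas3: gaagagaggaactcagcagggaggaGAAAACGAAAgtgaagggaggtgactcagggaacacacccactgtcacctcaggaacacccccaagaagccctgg
Gbp3: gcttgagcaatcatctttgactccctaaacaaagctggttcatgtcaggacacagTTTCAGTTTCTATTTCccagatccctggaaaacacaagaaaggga
Gbp7: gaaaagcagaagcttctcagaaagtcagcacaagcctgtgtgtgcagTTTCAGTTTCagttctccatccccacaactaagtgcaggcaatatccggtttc
Isg15: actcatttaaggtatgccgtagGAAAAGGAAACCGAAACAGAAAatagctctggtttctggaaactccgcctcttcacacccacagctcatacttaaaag
Cxcl10: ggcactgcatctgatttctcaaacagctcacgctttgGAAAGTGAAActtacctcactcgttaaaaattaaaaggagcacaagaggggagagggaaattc

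The RefSeq table of promoters (250 bases before to 50 after a start) held 29 of the 40 members. The response element core was present in 20 of these 29, against 1079 of all 27025 genes in the table (3.99%), or 3.44% of its 32851 single promoters. All 7 gamma-type members in the table held it, as did 5 of 8 type I members and 8 of 14 others. Of the members in the table, those with a match included 4 of the 6 that were lower in High than in NT and 13 of the 18 that were tested and passed in neither direction. Gbp4, Gbp9 and Oas2, also lower in High, were not in the table. Oasl2 and Xaf1, both lower in High, had no match in this window. A second motif, the STAT dimer site TTCNNNGAA, was present in 8 of the 29 members, in 9.55% of all genes in the table and in 8.30% of single promoters. These counts describe letters in a window and were not tested.

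**Figure D1:**
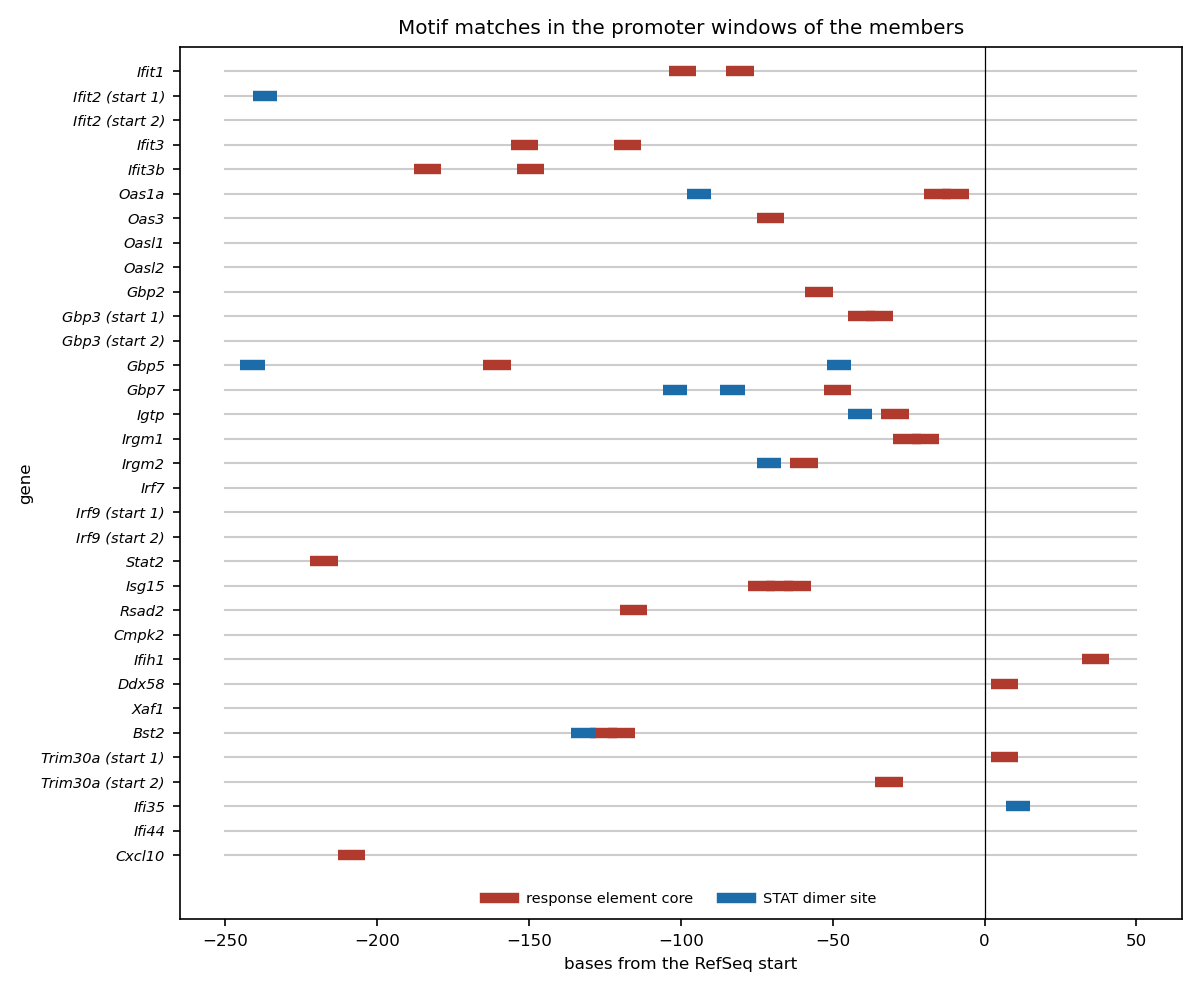
Position of each match to the response element core (red) and to the STAT dimer site (blue) in the promoter windows of the 29 members in the table, in bases from the RefSeq start. Grey lines are the windows, with 1 line per start. Matches of the core lie mostly within about 130 bases before the start, and windows such as those of Oasl2 and Xaf1 hold no match.

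The libraries had total counts between 22908445 and 33265848, so that 3 counts were worth between 0.0900 and 0.133 CPM (counts scaled to library size, with TMM factors). Mouse Dot1l was at 128, 184 and 150 CPM in NT, Low and High of K3117 and at 158, 152 and 136 CPM in K3174. High over NT gave it a log2 fold change of -0.00 ± 0.15 (SE), with a 95% interval of -0.34 to 0.34, and the count therefore did not follow the labels. Groups carry their label as a name below, and every direction is between the libraries so labelled. Leukemia and myeloid markers (Ptprc, Kit, Itgam, Hoxa9, Meis1, Mpo and Cd34) had counts in every library, with Kit between 3116 and 7289 counts. The lists of T and NK cells, B cells, and stroma and endothelium were mixed. Cd3e, Cd8a and Ncr1 of T and NK cells, Ms4a1 of B cells, and Col1a2, Col3a1 and Cxcl12 of stroma had no count in any library. In the same lists Nkg7 had 256 to 1627 counts per library, Lck 40 to 172, Ighm 1092 to 7947, Cd79b 249 to 439 and Pecam1, listed for endothelium, 3383 to 6638. Cdh5, also listed for endothelium, had 0 to 24.

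As a whole the set was expressed at a low level, and its summed CPM was 401 in NT, 334 in Low and 297 in High of K3117 and 278, 247 and 239 CPM in K3174. Per kilobase of exon, Bst2, a tether of budding virus, had the highest mean level of the 40 at 32.3 CPM per kb, followed by Gbp3 at 9.85, Oas1a at 9.32 and Ifi35 at 7.42. Several genes often used as the signature of an interferon response were close to the floor. Ifit3b had no count, Ifi44 and Iigp1 had 1 count each over the 6 libraries, and Ifit3, Oasl1, Mx2 and Rtp4 had between 0 and 16 counts per library. These 7 were not tested. Mx2 was counted 16, 2 and 3 times in K3117 and at most 2 times in a library of K3174, and Rtp4 15, 3 and 1 times in K3117 and at most 3 times in K3174. Isg15, the ubiquitin-like modifier, was at 1.65, 1.28 and 1.33 CPM in K3117 and at 0.832, 0.870 and 0.438 CPM in K3174.

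Compared with NT, 9 of the 33 tested members were lower in High and 1 was higher, at an adjusted p of 0.05 (edgeR, Benjamini-Hochberg over all genes tested). Among all genes tested, 7.32% were called lower and 10.0% higher in this comparison. Gbp4, Gbp9, Gbp3, Gbp7, Oas3, Oasl2, Oas2, Oas1a and Xaf1 fell, and Cxcl10 rose. The fitted log2 fold change was below 0 for 28 of the 33 members, with a median of -0.56 against -0.01 over all genes, and the median was -0.61 within K3117 and -0.48 within K3174. Type I members had a median of -1.38 and gamma-type members one of -0.58, a difference that was not tested. Within K3117 and K3174 the medians were -1.52 and -0.70 for type I members, and -0.70 and -0.49 for gamma-type members. Some members, such as Gbp4, passed the filter on low counts through NT, which favours values below 0. These tallies are thus partly set by the filter. A minimum of 5 CPM kept 18 members, with a median of -0.32, and 2 type I and 6 gamma-type members were among them. The order of the classes was reversed in that fit, with medians of -0.37 and -0.53. In bulk libraries, fewer cells of a type and less RNA per cell cannot be told apart. Without the leukemia block none of the 10 calls was left (0 higher and 0 lower in edgeR, with 0 higher and 5 lower at an unadjusted p of 0.05). Called genes as a whole went from 2741 to 493 in that fit. DESeq2, with the block, called 7 members lower and 1 higher, without Oas2 (-1.34, adjusted p = 0.168) and Oasl2 (-1.89, adjusted p = 0.0770). Among all genes DESeq2 called 937 lower and 1442 higher.

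**Figure D2:**
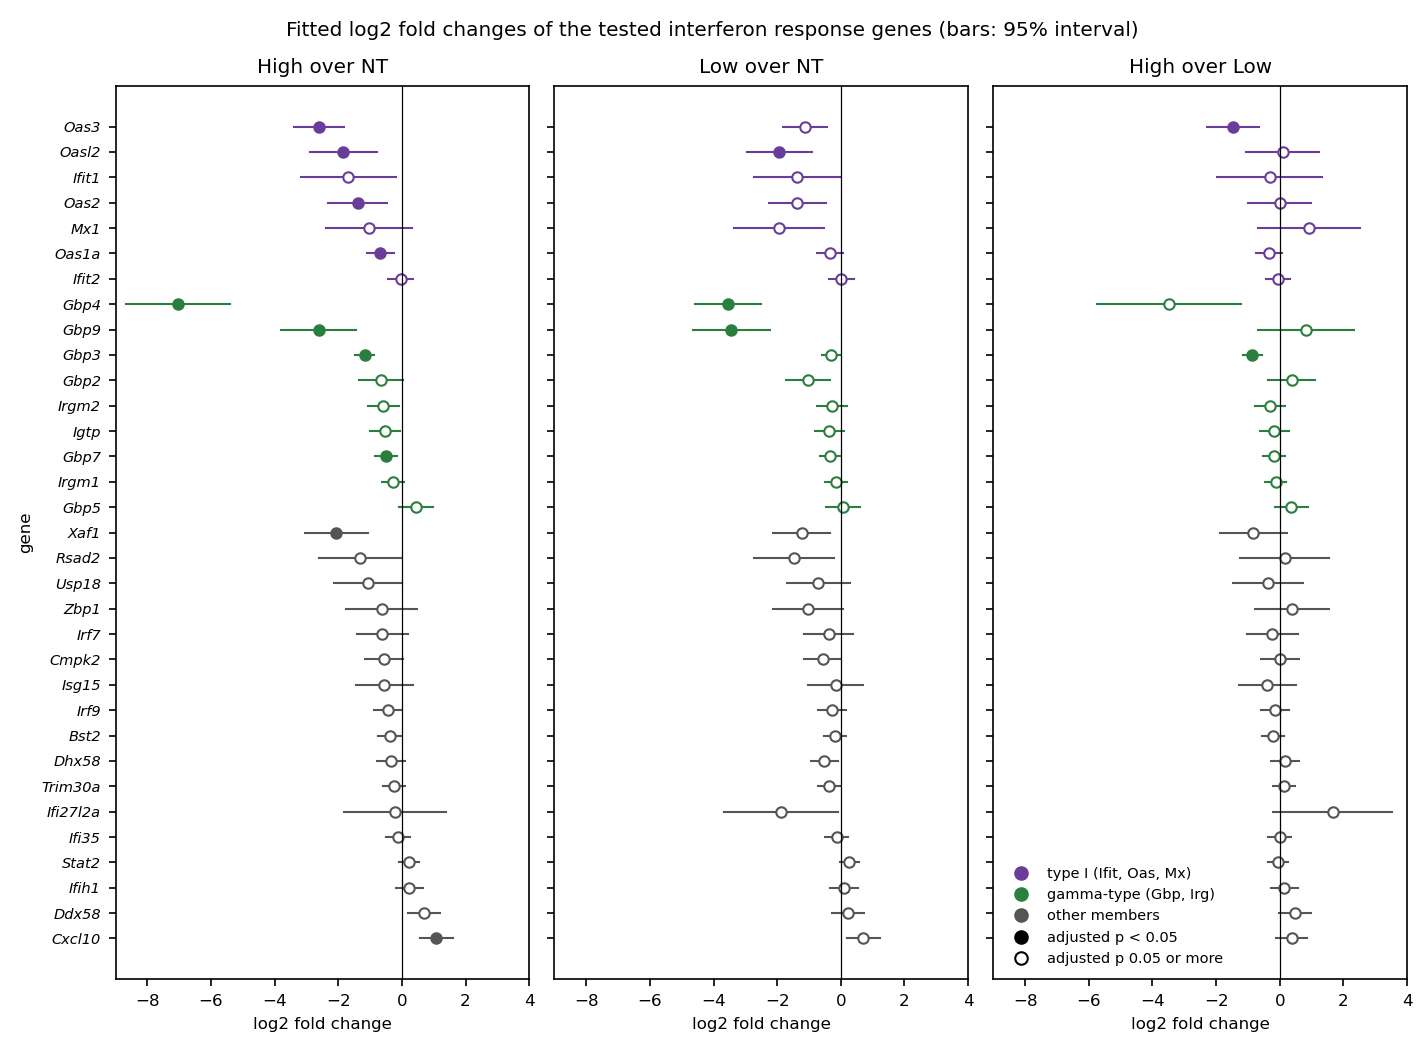
Fitted log2 fold change of each of the 33 tested members with its 95% interval, for High over NT, Low over NT and High over Low, coloured by class. Filled points passed an adjusted p of 0.05. In the first panel 28 of the 33 points lie below 0, with Gbp4 at -7.04 at the low end and Cxcl10 at 1.08 at the high end.

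The tested Oas members, of the family whose enzymes make the 2′-5′ oligoadenylate that switches on RNase L, fell in High. All 4 that were tested passed, and they lie on chromosome 5. Oas2, Oas3 and Oas1a lie between 120730333 and 120907521 (GRCm38), with Oas1c, Oas1b and Oas1g, which are outside the set, between Oas3 and Oas1a. Oas1c was lower in High than in NT in both leukemias. Oas1g was higher, at 0.722 and 0.350 CPM in NT and 1.02 and 0.471 CPM in High (K3117 and K3174). Oas1b was mixed, at 1.62 and 0.788 CPM in NT and 0.356 and 1.35 CPM in High. Oas3 was at 3.67, 1.67 and 0.622 CPM in NT, Low and High of K3117 and at 2.14, 0.989 and 0.337 CPM in K3174. It stepped down from NT to Low to High in both leukemias, and no library of 1 label overlapped those of another. High over NT gave a log2 fold change of -2.60 ± 0.36 (SE; adjusted p = 0.000391). Oasl2 (chromosome 5, 114896936 to 114912234) was at 2.04, 0.737 and 0.667 CPM in K3117 and at 1.05, 0.150 and 0.236 CPM in K3174. Both NT libraries were above the 4 others, and High over NT was -1.84 ± 0.47 (adjusted p = 0.0198). Oas2 was at 3.19, 1.03 and 0.800 CPM in K3117 and at 0.919, 0.480 and 0.606 CPM in K3174, where the step was smaller. Its fold change was -1.38 ± 0.42 (adjusted p = 0.0437). Oas1a, the most abundant Oas gene here, was at 21.8, 21.1 and 17.3 CPM in K3117 and at 21.1, 13.7 and 10.4 CPM in K3174. The NT libraries were alike, the fall was larger in K3174, and High over NT was -0.68 ± 0.19 (adjusted p = 0.0288).

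The fall of Oas3 passed in every fit with the block whose filter kept the gene, and missed the threshold without it (-2.62, adjusted p = 0.0536). The other 3 calls rested on single libraries, and those of Oas2 and Oasl2 on the tool as well, since DESeq2 did not make them. Oas2 gave -0.78 when NT of K3117 was left out (adjusted p = 0.371), -0.81 when High of K3117 was (adjusted p = 0.444), and missed the threshold without either Low library (adjusted p of 0.0648 and 0.0727). Oas1a gave -0.36 when NT of K3174 was left out (adjusted p = 0.212) and -0.48 when High of K3174 was (adjusted p = 0.314). Oasl2 gave -1.47 when NT of K3174 was left out (adjusted p = 0.0763) and -1.89 when High of K3117 was (adjusted p = 0.0705). Of the 75-base sequences in Oas1a transcripts, 47.6% also occur in its paralog Oas1g, so the count of Oas1a depends on how shared reads were placed. Oas2, Oas3 and Oasl2 shared no such sequence with another gene.

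Ifit and Mx genes did not pass in High over NT. Ifit2, which binds RNA and restrains translation and was by far the most counted Ifit gene, was at 12.5, 11.8 and 11.9 CPM in K3117 and at 7.70, 8.37 and 7.67 CPM in K3174. Its log2 fold change of -0.04 had a 95% interval of -0.44 to 0.35, so a change of the size seen for Oas3 or Oasl2 lies outside it. Ifit1, a binder of viral RNA caps, went from 29 counts in NT to 3 in High of K3117 and from 8 to 6 in K3174 (-1.69 ± 0.68, adjusted p = 0.119). Mx1, a dynamin-like antiviral GTPase, had between 3 and 25 counts per library (-1.03 ± 0.61, adjusted p = 0.306). Both genes had their highest count in the NT library of K3117.

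Gbp genes, GTPases that gather on pathogen vacuoles, showed the strongest single fall of the set. Gbp4 (chromosome 5, 105115767 to 105139586, minus strand) was counted 170, 18 and 1 times in NT, Low and High of K3117 and 29, 1 and 0 times in K3174. NT held nearly all of its counts, and the 199 counts of NT against 1 of High, scaled for depth, gave a ratio of 185 with a 95% counting interval of 32.9 to 7350. In K3174 alone the level was at least 12.6-fold lower in High, with 3 counts as the floor. The fitted log2 fold change was -7.04 ± 0.75 (adjusted p = 6.04e-05), and its size depends on how the empty library is handled. Its neighbour Gbp9 was counted 117, 10 and 7 times in K3117 and 18, 2 and 8 times in K3174, with both Low and both High libraries under both NT libraries. Gbp9 fell by 2.62 on the log2 scale (SE 0.54, adjusted p = 0.00542). The gene models of Gbp4 and Gbp9 overlap on the same strand by 23773 bases, and both overlap Gbp8, so counts of these genes are not fully separate.

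The other 4 Gbp members lie together on chromosome 3, between 142493978 and 142638008. Gbp3 was at 53.3, 43.2 and 22.4 CPM in K3117 and at 32.6, 26.2 and 15.3 CPM in K3174. It stepped down in both leukemias, with a High over NT of -1.17 ± 0.14 (adjusted p = 0.000117). Gbp7 was at 44.6, 30.5 and 27.4 CPM in K3117 and at 26.4, 24.9 and 21.6 CPM in K3174. It fell within each leukemia, though NT of K3174 lay below High of K3117, and High over NT was -0.51 ± 0.15 (adjusted p = 0.0427). Gbp2 was at 4.27, 1.95 and 2.58 CPM in K3117 and at 0.919, 0.510 and 0.639 CPM in K3174, and its difference of -0.65 ± 0.32 did not pass (adjusted p = 0.205). Gbp5, which promotes inflammasome assembly, did not share the direction, with 6.37, 6.50 and 6.89 CPM in K3117 and 2.76, 3.06 and 4.81 CPM in K3174 (0.44 ± 0.24, adjusted p = 0.268). Gbp3 and Gbp4 passed in every fit with the block whose filter kept them, and gave -1.19 (adjusted p = 0.133) and -7.08 (adjusted p = 0.0820) without it. Gbp9 was lost when the K3117 library of NT (-1.96, adjusted p = 0.0890) or of High (-1.52, adjusted p = 0.184) was left out. Gbp7 was lost without any one of the libraries other than NT of K3174 (-0.28 to -0.59, adjusted p of 0.0552 to 0.289), and was smallest without NT of K3117.

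**Figure D3:**
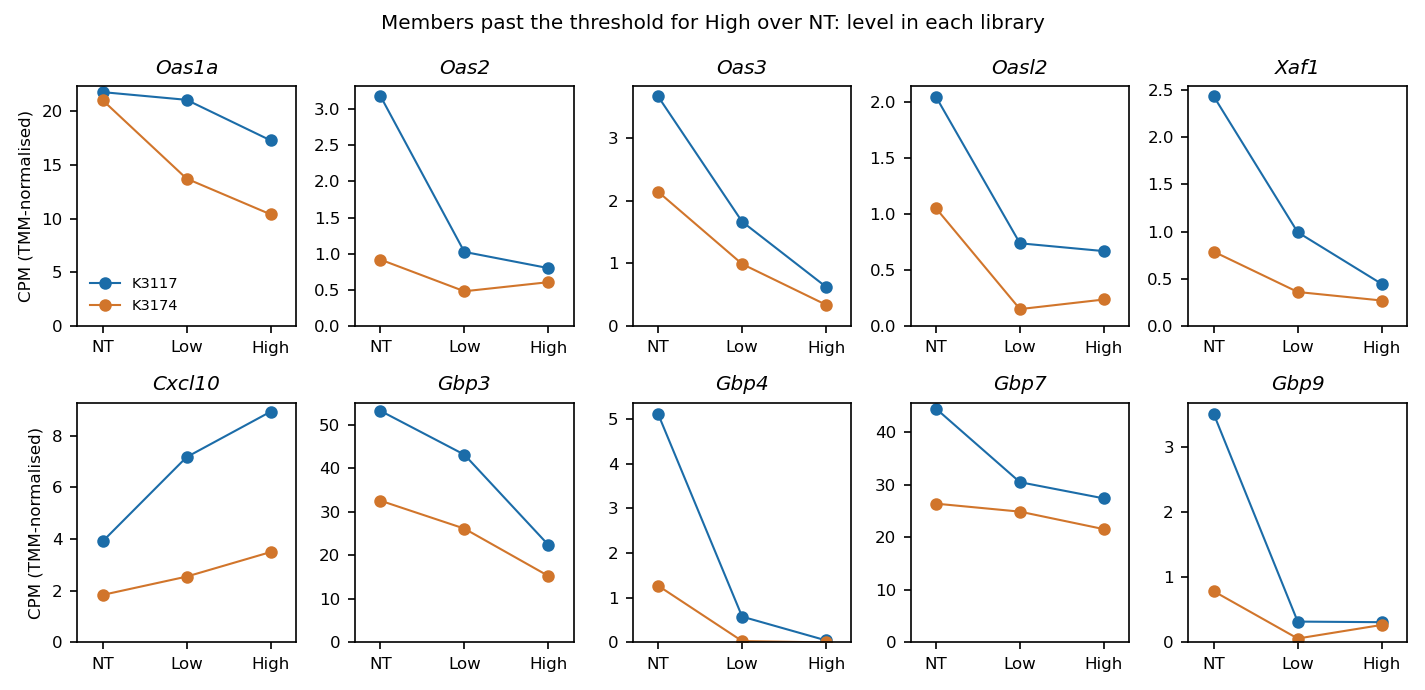
CPM of the 10 members that passed for High over NT in each library, by label and leukemia (K3117 blue, K3174 orange), with 1 library per point and lines that join libraries of 1 leukemia. Each vertical axis starts at 0 and has its own scale. For the 9 falling genes the High point lies under the NT point in both leukemias, and for Cxcl10 it lies above, at 8.94 against 3.91 CPM in K3117 and 3.50 against 1.84 in K3174.

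Irg genes, GTPases of cell-autonomous defence, did not pass in High over NT. Irgm1 was at 20.6, 19.3 and 16.8 CPM in K3117 and at 16.7, 14.4 and 13.9 CPM in K3174. Igtp was at 7.88, 6.50 and 5.34 CPM in K3117 and at 6.04, 4.44 and 4.27 CPM in K3174. Irgm2 was at 7.16, 5.38 and 4.67 CPM in K3117 and at 5.43, 4.92 and 3.74 CPM in K3174. High was under NT in both leukemias for these genes, with fold changes of -0.28 (adjusted p = 0.269), -0.53 (adjusted p = 0.117) and -0.58 (adjusted p = 0.0952), and 0 of the 3 passed in edgeR or in DESeq2, though the 95% intervals of Igtp and Irgm2 lay below 0. Igtp and Irgm2 overlap on the same strand by 7974 bases.

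Among the remaining members, Xaf1, a partner of the apoptosis inhibitor XIAP, fell in High. It was at 2.44, 0.993 and 0.445 CPM in K3117 and at 0.788, 0.360 and 0.269 CPM in K3174, a step down across the labels in both leukemias. High over NT was -2.06 ± 0.46 (adjusted p = 0.00857), and the call was lost when NT (-1.78, adjusted p = 0.0669) or High (-1.59, adjusted p = 0.134) of K3117 was left out. Cxcl10, a chemokine that draws T cells through Cxcr3, went the other way. It was at 3.91, 7.18 and 8.94 CPM in K3117 and at 1.84, 2.55 and 3.50 CPM in K3174, rising over the labels within each leukemia while High of K3174 stayed under NT of K3117. High over NT was 1.08 ± 0.24 (adjusted p = 0.00815), and it was lost only in the fit without the block (1.10, adjusted p = 0.434) among the alternatives run. Cxcl10 lies inside a gene model on the other strand, Art3, which had 55 counts in all against 786 for Cxcl10.

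The factors that carry the interferon signal did not pass. Stat2 was at 24.5, 28.5 and 25.8 CPM in K3117 and at 25.6, 32.0 and 32.8 CPM in K3174 (High over NT 0.22 ± 0.14, adjusted p = 0.353). Irf9 was at 19.4, 17.9 and 12.4 CPM in K3117 and at 12.9, 9.26 and 10.9 CPM in K3174 (-0.43 ± 0.20, adjusted p = 0.178). Irf7, the factor that amplifies type I interferon, was low, at 1.20 to 2.32 CPM in K3117 and 0.840 to 1.14 CPM in K3174 (-0.62 ± 0.36, adjusted p = 0.305). Stat2 was thus slightly above NT and the 2 Irf genes below it, within the error of the fit.

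The 4 sensors of nucleic acid did not pass in either direction, and their fitted fold changes lay above 0 for 2 and below 0 for 2. Ddx58, which encodes RIG-I, was at 12.3, 12.0 and 14.0 CPM in K3117 and at 5.87, 8.67 and 14.0 CPM in K3174 (0.70 ± 0.23, adjusted p = 0.0639). Ifih1, which encodes MDA5, was at 27.4, 22.5 and 25.0 CPM in K3117 and at 15.2, 22.0 and 24.1 CPM in K3174 (0.24 ± 0.20, adjusted p = 0.497). For both genes the NT library of K3174 was the lowest of the 6, and the High libraries of the leukemias were close together. With NT of K3117 left out both passed, Ddx58 at 1.14 (adjusted p = 0.000172) and Ifih1 at 0.66 (adjusted p = 0.00344), and Ddx58 also passed at 1.07 without High of K3117 (adjusted p = 0.00282). Ifih1 turned to -0.13 with NT of K3174 left out (adjusted p = 0.690). Dhx58, the regulator LGP2, was at 10.5, 7.43 and 7.82 CPM in K3117 and at 6.08, 4.20 and 5.05 CPM in K3174 (-0.35 ± 0.20, adjusted p = 0.291). Zbp1, a sensor of Z-form nucleic acid, had between 8 and 46 counts per library (-0.64 ± 0.51, adjusted p = 0.468).

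Bst2 was at 33.9, 36.2 and 30.4 CPM in K3117 and at 31.2, 22.9 and 20.5 CPM in K3174, so that its lower values lay in Low and High of K3174 (-0.39 ± 0.16, adjusted p = 0.133). Trim30a, a ubiquitin ligase family member, was at 38.9, 25.4 and 31.9 CPM in K3117 and at 24.4, 22.3 and 21.3 CPM in K3174 (-0.25 ± 0.16, adjusted p = 0.342). Ifi35 lay between 10.9 and 14.0 CPM in all 6 libraries (-0.13 ± 0.17, adjusted p = 0.682). These 3 abundant members did not pass, although Bst2 did at -0.63 when NT of K3117 was left out (adjusted p = 0.00203). Isg15 and Usp18, the protease that removes it, had -0.55 ± 0.41 (adjusted p = 0.429) and -1.07 ± 0.49 (adjusted p = 0.171). Rsad2, the antiviral enzyme viperin, had between 5 and 30 counts per library (-1.31 ± 0.59, adjusted p = 0.166), and its neighbour Cmpk2, a nucleotide kinase, lay between 3.16 and 9.59 CPM (-0.56 ± 0.27, adjusted p = 0.193). Without NT of K3117, Rsad2 passed at -2.34 (adjusted p = 0.0248), and without High of K3174, Cmpk2 passed at -1.16 (adjusted p = 0.00869). Ifi27l2a had between 0 and 19 counts per library (-0.22 ± 0.73, adjusted p = 0.893).

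For Low over NT, 3 of 33 members were lower and 0 higher, against 1.29% and 2.05% of all genes tested. Gbp4 fell by 3.55 on the log2 scale (SE 0.48, adjusted p = 0.00191), Gbp9 by 3.44 (SE 0.55, adjusted p = 0.00539) and Oasl2 by 1.93 (SE 0.46, adjusted p = 0.0452). The median over the 33 members was -0.37, with -1.37 for type I and -0.32 for gamma-type members, against -0.01 over all genes. Oas3 (-1.13 ± 0.31, adjusted p = 0.0829), Oas2 (-1.37 ± 0.41, adjusted p = 0.110) and Cxcl10 (0.70 ± 0.24, adjusted p = 0.174) did not pass. At an unadjusted p of 0.05, edgeR had 1 member higher and 14 lower, and DESeq2 called 0 higher and 2 lower after adjustment. Among all genes DESeq2 called 373 higher and 202 lower. No member passed without the block, a fit in which 0 genes of all passed for this comparison against 528 with it. Gbp9 was also lost when NT of K3117 was left out (-2.70, adjusted p = 0.0593), and Oasl2 when either Low library or NT of K3174 was, at -1.55 to -2.65 (adjusted p of 0.0928 to 0.574). Oas3 passed without either High library (-1.13, adjusted p of 0.0188 and 0.0196), Oas2 without either High library or NT of K3174 (-1.36 to -1.76, adjusted p of 0.0134 to 0.0182), and Ifih1, the 1 member that was higher in any of these fits, without NT of K3117 (0.53, adjusted p = 0.0480). Without NT of K3174 it was below 0 (-0.28, adjusted p = 0.453).

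For High over Low, 2 of 33 members were lower and 0 higher, against 1.35% and 4.12% of all genes tested. Gbp3 was lower at -0.86 ± 0.14 (adjusted p = 0.00336) and Oas3 at -1.47 ± 0.38 (adjusted p = 0.0436). Gbp4, with 1 count in the High libraries and 19 in the Low ones, gave -3.49 ± 1.03 (adjusted p = 0.0827) and passed without NT (-3.53, adjusted p = 0.0195) or Low (-3.81, adjusted p = 0.0459) of K3174. Gbp9 and Oasl2, already low in Low, gave 0.82 (95% interval -0.70 to 2.34) and 0.09 (-1.07 to 1.25). The median over the members was -0.05, against 0.00 over all genes, with -0.15 in K3117 and 0.12 in K3174. At an unadjusted p of 0.05 edgeR had 0 members higher and 3 lower, and DESeq2 called 0 higher and 1 lower after adjustment. Among all genes DESeq2 called 860, of which 635 were higher. Neither call was left without the block, in which 0 genes of all passed against 866 with it. Oas3 was also lost without any one of the 4 Low and High libraries (adjusted p of 0.119 to 0.347), and Gbp3 without the Low library of K3117 (adjusted p = 0.0504). The comparisons with NT share the NT libraries, and those of High and of Low share theirs, so their values stand side by side here and are not independent.

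The set differed between the leukemias at equal labels. K3174 was lower than K3117 for 13 of 33 members and higher for 0, against 6.32% and 3.05% of all genes tested. At an unadjusted p of 0.05 edgeR had 1 member higher and 25 lower, and DESeq2 called 0 higher and 10 lower after adjustment. Among all genes DESeq2 called 1310, of which 460 were higher. The fitted difference was below 0 for 31 of 33 members, with Cmpk2 (0.72) and Stat2 (0.19) as the exceptions. The median was -0.77, against 0.00 over all genes, and it was -0.78 in NT, -0.72 in Low and -0.55 in High. The libraries of a K number share their source, so these p-values compare these 2 leukemias and say nothing of the spread between leukemias.

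All 6 Gbp members were lower in K3174. Gbp2 had the smallest p (-2.06 ± 0.27, adjusted p = 0.000470), and its values of 0.510 to 0.919 CPM in K3174 lay under its 1.95 to 4.27 CPM in K3117. Gbp4 (-2.38), Gbp9 (-1.67), Gbp5 (-0.93), Gbp3 (-0.66) and Gbp7 (-0.47) followed, with adjusted p of 0.00238 to 0.0456. The 3 Irg genes had -0.28 to -0.42 and did not pass. Cxcl10 was also lower in K3174 (-1.32 ± 0.19, adjusted p = 0.000942), at 1.84 to 3.50 CPM against 3.91 to 8.94 CPM, although it rose with the labels in each leukemia. Of the type I members, Ifit2 (-0.61 ± 0.15, adjusted p = 0.0212) and Oasl2 (-1.43 ± 0.40, adjusted p = 0.0436) passed. Ifit2 is thus a member that differed between the leukemias and not detectably between the labels. Dhx58 (-0.75), Irf9 (-0.58), Trim30a (-0.48) and Xaf1 (-1.36) made up the 13, with adjusted p of 0.0126 to 0.0439. Fewer members passed when either Low library was left out, in fits that leave 1 Low library. Cmpk2 missed the threshold (adjusted p = 0.0668), and passed as higher in K3174 at 0.85 to 0.95 when either NT or either Low library was left out (adjusted p of 0.00394 to 0.0461).

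**Figure D4:**
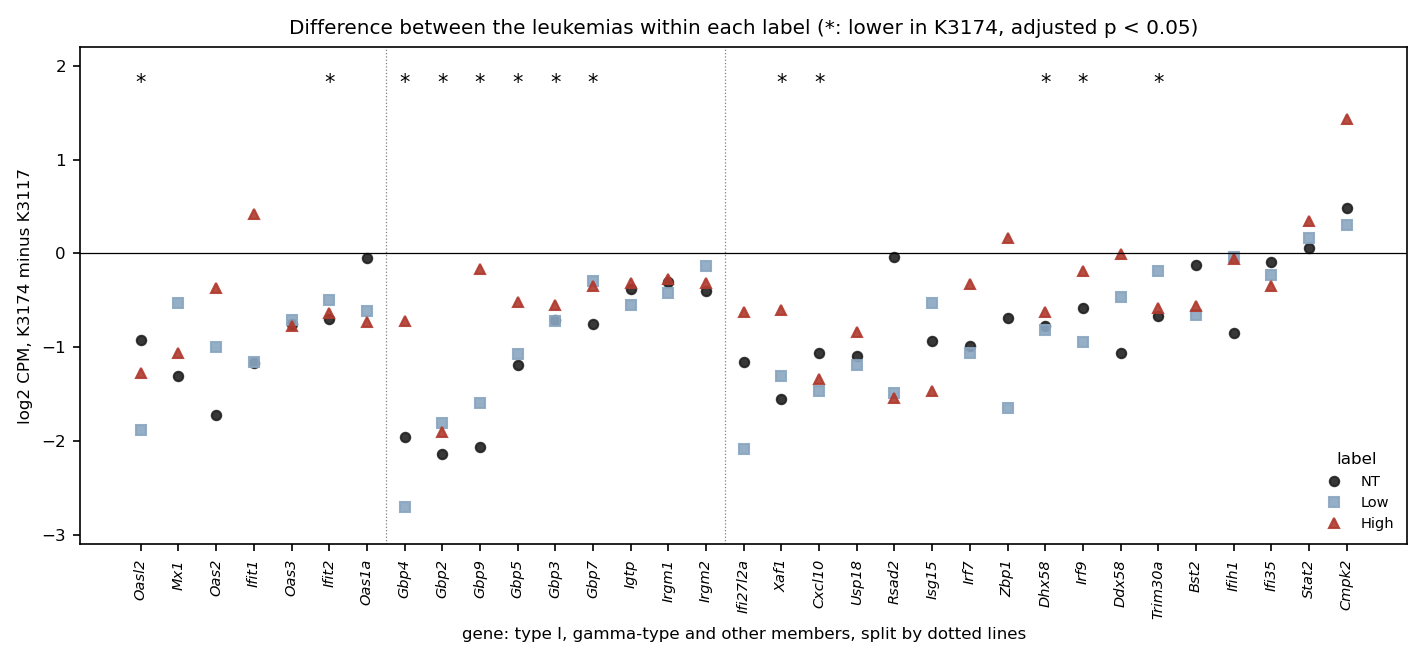
Difference of log2 CPM between K3174 and K3117 for each tested member within NT, Low and High, with 1 pair of libraries per point. Members are grouped as type I, gamma-type and other, and asterisks mark the 13 members that passed in the fit over the 3 labels. Most points lie below 0, with medians of -0.78, -0.72 and -0.55 in NT, Low and High.

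Other genes of the pathway were read from lists of 101 genes. Their counts for High over NT stand against 10.0% of all genes tested called higher and 7.32% called lower. Interferon genes themselves were near absent. Of 11 interferon ligands, 0 could be tested: Ifnb1, Ifng, Ifna1, Ifna2, Ifna4 and Ifna5, Ifne, Ifnl2 and Ifnl3 had no count, and Ifnk and Ifnab together reached at most 0.270 CPM. Of 9 receptors and kinases, 2 were higher and 1 lower in High over NT. Ifnlr1, the specific chain of the lambda interferon receptor, rose by 2.64 ± 0.53 (adjusted p = 0.00476) from 0.331 and 0.219 CPM to 1.38 and 2.49 CPM, and Jak1, the kinase shared by the interferon receptors, by 0.57 ± 0.11 (adjusted p = 0.00454). Il10rb, the partner chain of Ifnlr1, fell by 0.40 (SE 0.12, adjusted p = 0.0443). Ifnar1, Ifnar2, Ifngr1 and Ifngr2 lay between 48.4 and 289 CPM in every library and did not pass in any comparison of the labels, with Ifnar1 lower in K3174 (-0.41 ± 0.09, adjusted p = 0.0152).

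Of 7 further STAT and IRF factors, 1 was lower in High over NT and 0 higher, against 7.32% and 10.0% of all genes tested. Irf8, a factor of monocytes and dendritic cells, was at 115, 111 and 74.3 CPM in K3117 and at 176, 85.0 and 62.9 CPM in K3174 (-1.09 ± 0.20, adjusted p = 0.00273). Of 11 tested sensing and adaptor genes, 3 were higher and 2 lower: Ikbke, a kinase that activates Irf3 and Irf7, rose by 1.68 ± 0.13 (adjusted p = 5.78e-06) and Tlr7 by 1.08 ± 0.29 (adjusted p = 0.0243), while Tmem173, which encodes STING, fell by 0.65 (SE 0.12, adjusted p = 0.00334) and Mavs by 0.58 (SE 0.16, adjusted p = 0.0275). Of 9 tested brakes on the signal, 1 was higher, close to the 10.0% of all genes, and 0 were lower. It was Socs3, an inhibitor of JAK kinases, which rose by 1.18 ± 0.23 (adjusted p = 0.00465).

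Further response genes moved in both directions. Of 31 tested type I response genes outside the set, 8 were lower and 2 higher in High over NT, with a median of -0.22. Among all genes tested, 7.32% were lower and 10.0% higher in this comparison. Parp9 fell by 1.06 (SE 0.13, adjusted p = 0.000213), Slfn8 by 2.10 (SE 0.32, adjusted p = 0.000830) and Ifi203 by 1.24 (SE 0.23, adjusted p = 0.00305), while Samd9l rose by 1.54 ± 0.24 (adjusted p = 0.000809). Of 13 tested gamma-type response genes outside the set, 9 were lower and 2 higher, with a median of -1.18. These included genes that cut and load peptides for MHC class I. Psmb8 and Psmb9, subunits of the immunoproteasome, fell by 1.44 (SE 0.16, adjusted p = 0.000103) and 1.28 (SE 0.14, adjusted p = 9.5e-05), and Tap1 and Tap2, the peptide transporter, by 1.16 (SE 0.15, adjusted p = 0.000237) and 1.26 (SE 0.14, adjusted p = 6.66e-05). Tap2 was at 144, 118 and 65.9 CPM in K3117 and at 150.5, 88.1 and 57.6 CPM in K3174, a step down at both labels. In Low over NT, 3 type I and 1 gamma-type response genes outside the set were lower and 0 higher, against 1.29% and 2.05% of all genes tested. In High over Low 5 gamma-type genes were lower and Samd9l was higher, against 1.35% and 4.12%. In K3174 over K3117, 11 of the 31 and 4 of the 13 were lower and 0 higher, against 6.32% and 3.05% of all genes tested. Ifitm3 (-2.04 ± 0.15, adjusted p = 7.93e-06) and Ifitm1 (-1.52 ± 0.14, adjusted p = 3.06e-05) were among the lower ones.

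Most tested markers of dendritic cells were lower in High than in NT, as most members were. Among all genes tested, 7.32% were called lower and 10.0% higher there. From Low to High the markers and the set differed. The median log2 fold change was -2.11 for plasmacytoid and -0.68 for conventional dendritic markers, against -0.05 for the members. Of 5 tested plasmacytoid dendritic cell markers (of 7 listed), 4 were lower in High over NT, and their summed CPM was 324 and 224 in NT, 217 and 160.2 in Low and 129 and 90.0 in High (K3117 and K3174). Most of that sum was Tcf4, and Siglech, which is more specific to these cells, was counted 94, 47 and 9 times in K3117 and 15, 19 and 3 times in K3174. Of 4 tested conventional dendritic cell markers (of 7), 3 were lower, with sums of 62.9 and 37.7 CPM in NT and 9.69 and 4.31 CPM in High, while Cd209a had no count and Clec9a at most 4 per library. Most of the NT sums was Flt3, at 33.5 and 27.2 CPM. Xcr1, the tested marker of this list that was not lower, was at 0.331 and 0.438 CPM in NT and 0.400 and 0.572 CPM in High. In the other direction, all 6 tested genes (of 7) listed as late neutrophil markers were higher, with sums of 9.56 and 106 CPM in NT and 1505 and 6754 CPM in High. They were Ngp, Ltf, Camp, Lcn2, S100a8 and S100a9. Retnlg, the gene of this list that was not tested, had at most 4 counts per library, and the stage of the cells was not tested. All 3 tested macrophage markers (of 7) were higher too, with C1qa and C1qc at 0 in every library. Monocyte markers were mixed in High over NT, with 3 of 6 higher and 3 lower, Irf8 among the lower. Leukemia and myeloid progenitor markers were mixed too, with 3 of 7 higher and 3 lower. Between the leukemias, 3 of 5 plasmacytoid and 2 of 4 conventional dendritic markers were lower in K3174 and all 6 tested genes of the neutrophil list higher. Among all genes tested, 6.32% were lower and 3.05% higher in K3174. Of the B cell list (6 genes, 3 tested), Ighm was lower in High (-1.91 ± 0.17, adjusted p = 1.86e-05), and of the T and NK list (8 genes, 2 tested) Nkg7 was higher (1.87 ± 0.22, adjusted p = 0.000138) and Lck lower (-1.22 ± 0.27, adjusted p = 0.00775). The 2 tested genes of stroma and endothelium (of 7) did not pass. The summed CPM of these lists lay between 60.0 and 248.5 for B cells, 13.2 and 56.2 for T and NK cells and 115 and 213 for stroma and endothelium. Most of each sum was 1 gene, Ighm, Nkg7 and Pecam1 in turn, so the sums do not measure the content of these cells. The part of these cell types in the levels of the interferon response genes was not tested.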

How the data were processed

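The authors deposited 1 table of whole-number counts per gene for the 6 libraries, taken unchanged. Per the submitters' processing notes, the tools were kallisto, DESeq2, STAR and STAR-Fusion and the build mm10. Not given in the sources used here are the counting tool, its annotation and its strand setting; overlapping and antisense genes therefore cannot be told apart. Reads were pairs of 150 bases per the labels. Symbols matched 99.5% of IDs, and the 259 others held at most 0.0204% of a library. Positions are from GENCODE on GRCm38.

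In R 4.3.3, edgeR 4.0.16 fitted a quasi-likelihood model to the 15812 genes kept by its expression filter, with TMM factors (0.973 to 1.04), label and leukemia as terms, 2 residual and 9.38 prior degrees of freedom. Calls needed a Benjamini-Hochberg adjusted p under 0.05 over these genes. Log2 differences within a leukemia used a prior count of 2. Every pair of libraries differed by more than sampling noise, with a lowest chi-square of 24.2 per degree of freedom. The block rests on the titles, where a K number occurs once under every label, and deviations correlated across genes at 0.57, 0.44 and 0.64 between NT and Low, NT and High, and Low and High. Alternatives were no block, library sizes alone, upper quartile factors, DESeq2 1.42.0, no filter, a minimum of 5 CPM in 2 libraries, and leaving out each library. The script was tested on simulated data. Intervals of ratios cover counting error only.

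The members and gene lists were chosen with earlier results of these data known, so no list was tested. Values in every library are given for members past the threshold in any comparison and the 4 most abundant of each class. Up to 4 genes with the smallest p are named per pathway list. Results of 2 listed genes are not reported here.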

Additional observations from a re-analysis of the deposited data

Results flagged for a closer look

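For 3 members the labels went opposite ways in the leukemias, beyond counting error in both, when 2 groups were compared within each leukemia. Ifih1 gave a log2 difference for Low over NT of -0.28 in K3117 and 0.53 in K3174. Irf9 gave -0.52 in K3117 and 0.23 in K3174 for High over Low, and Cmpk2 gave -0.62 in K3117 and 0.50 in K3174 for the same labels. With 1 pair of libraries per leukemia, none of these differences between the leukemias was tested.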

How the results depend on the processing

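Of 132 member results, 28 passed the threshold, and none of these 28 changed sign in any alternative run. Ifih1, which passed only in the fit without the NT library of K3117 (0.66 for High over NT and 0.53 for Low over NT), changed sign to -0.13 and -0.28 without the NT library of K3174, and to -0.10 for Low over NT without the Low library of K3174. The fits without the replicate block called 0 members in each direction in all 3 comparisons of the labels, so that the 15 calls there were lost (edgeR, with 5, 4 and 2 lower members at an unadjusted p of 0.05 for High over NT, Low over NT and High over Low). The comparison of the leukemias has no value without it. With no filter on low counts (39 members fitted), 2 members were higher for High over NT, 5 were lower for Low over NT and 1 was higher in K3174. Of all 26299 genes in that fit, 1846 were higher for High over NT and 520 lower for Low over NT. With a minimum of 5 CPM, only 18 members could be fitted, and 3, 0, 1 and 6 were lower for High over NT, Low over NT, High over Low and K3174 over K3117. Of all 10258 genes in that fit, 726 were lower for High over NT and 94 for Low over NT. DESeq2 called 1 lower for High over Low, where it called 860 genes of all, 635 of them higher. Other scaling kept the members' counts within 1 of the main ones. It moved the share of higher calls among all genes for High over NT from 57.8% of 2741 to 49.1% of 2748 with library sizes alone and to 43.9% of 2953 with upper quartile factors, where the median of all genes was -0.11.

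Leaving out each library in turn gave 4 to 8 lower and 1 to 3 higher members for High over NT, 2 to 5 lower and 0 to 1 higher for Low over NT, 0 to 3 lower for High over Low, and 5 to 14 lower and 0 to 1 higher for K3174 over K3117. The fewest members were lower for High over NT without the High library of K3117, and the most were higher without the NT library of K3117. At 3 counts to 0.0900 to 0.133 CPM, a further 7 members were too low to be tested.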
